A study of Mus musculus with 2 samples.

Results

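The genes described here build the contractile apparatus of heart muscle and move the calcium that drives it. They are a list of 34 symbols, each found once among the 27998 genes of the count tables: 8 genes of the thin filament, 7 of the thick filament, 10 of the Z disc and M band, 3 assembly factors and chaperones, and 6 calcium handling genes. Single-cell RNA-seq was performed on GFP-positive, DAPI-negative cells sorted after trypsin treatment of the pharyngeal apparatus and heart of mouse embryos at E9.5, in the Swiss Webster strain. The Ctrl library came from embryos with Mesp1Cre;Rosa26-GFPflox/+, and the cKO library from embryos with Mesp1Cre;Rosa26-GFPflox/+;Tbx1flox/flox, so both groups carried Mesp1Cre, a knock-in that acts in the earliest mesoderm, and the GFP reporter. Each library pooled 2 embryos and is 1 sample. The cKO embryos were slightly further in somite number by the study's sample list and the groups came from different crosses, so genotype, stage and cross cannot be told apart. The question asked of these genes is how their transcripts are distributed over cardiomyocytes, posterior heart field cells and the remaining mesoderm, and how the levels in the cKO-labelled library compare with those in the Ctrl-labelled library.

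In a sarcomere, myosin heads of the thick filament pull on actin of the thin filament, which the troponin and tropomyosin proteins cover until calcium binds troponin C. Calcium enters through the L-type channel, is released from the sarcoplasmic reticulum by the ryanodine receptor and is pumped back by SERCA2. In the embryo the primitive heart tube already beats while second heart field progenitors, still without sarcomeres, are added at both poles, and the posterior part of that field contributes to the inflow side.

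The library labelled Ctrl held 7418 cell barcodes and 132017331 UMIs (unique molecular identifiers, each standing for 1 captured transcript), and the cKO-labelled library held 10281 barcodes and 162874391 UMIs. After filters on detected genes, mitochondrial UMIs and presumed doublets, 6591 and 8969 cells were kept, with medians of 16854 and 14189 UMIs. The libraries had 15 barcodes in common. Tbx1, the targeted gene, was higher in the cKO-labelled library (44.8 CPM, 43.7 to 45.9, where CPM is UMIs of a gene per 1000000 UMIs of the cells counted) than in the Ctrl-labelled library (26.4, 25.5 to 27.4). These are 3′ tags, which need not lie in the deleted part, so Tbx1 does not check the labels here. All intervals given here are exact 95% intervals that cover counting error only. With 1 library a group no test between groups was possible, and PCR and embryo differences are not in the intervals. Both libraries held cells with Xist and no Y-linked UMI as well as cells with Y-linked UMIs and no Xist. With 2 embryos to a pool, these come from different embryos, and values of both portions, Xist-positive first, are given beside the pooled ones as a description of the spread within a library.

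Cells were divided in 3 classes. Cardiomyocytes were cells in which Tnnt2, Actc1, Myl7, Myh6 and Myh7 together made up at least 1% of UMIs. Posterior heart field cells were cells outside that class with at least 1 UMI each of Osr1 and Foxf1. All further cells formed the last class. The 5 cardiomyocyte genes are members, and their high level in cardiomyocytes and low level elsewhere is set by the rule. The classes held 225, 1083 and 5283 cells of the Ctrl-labelled library and 428, 1024 and 7517 cells of the cKO-labelled library. The posterior class carried its markers: the summed level of 8 genes of that field, among them Tbx5, Isl1, Aldh1a2 and Hoxb1, was 837 CPM in the Ctrl-labelled library and 714 in the cKO-labelled library, against 406 and 304 in the other cells. Tcf21, a gene of pharyngeal muscle and epicardial progenitors, stood at 92.4 and 70.3 CPM in it.

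The members lie on 13 chromosomes (GRCm38.p6, the build the files use). Some are neighbours: Tnni3 lies 2329 bases from Tnnt1 on chromosome 7, Myh6 lies 2666 bases from Myh7 on chromosome 14, and Tnni1 lies 25325 bases from Tnnt2 on chromosome 1, each pair on a shared strand. The myosin heavy chains Myh6 and Myh7 and the actins Actc1 and Acta1 are close in sequence, so counts of the rarer gene of each pair are uncertain. RefSeq promoters, 250 bases before to 50 after an annotated start, were at hand for 30 of the 34 members. The CArG box, the binding site of serum response factor (CC, then 6 bases of A or T, then GG), was in 8 of 41 member promoters (19.5%) and in 1.63% of 32851 promoters of that length. It was in promoters of 7 members: Acta1, Actc1, Ldb3, Myl3, Myl7, Myom1 and Nebl. The T-box site AGGTGT, searched on both strands, was in 19.5% of member promoters and 13.7% of all, and the TATA box TATAAA in 14.6% and 13.6%. The GATA site AGATAA was in 17.1% and 11.2%, the NKX2-5 site CACTTNA in 7.32% and 11.5%, and the MEF2 site in 7.32% (Mybpc3, Synpo2l and Ttn) and 0.557%. No CArG match overlapped a TATAAA match. A match says only that the letters are there.

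The promoters of Actc1, Myl7 and Ldb3 are shown because all 3 hold a CArG box near the annotated start. Actc1 and Myl7 were higher in posterior heart field cells of the cKO-labelled library, and Ldb3 was lower in its cardiomyocytes. These are different classes. Ldb3 gave only 2 and 4 UMIs in posterior heart field cells, and Actc1 and Myl7 did not reach 1.5-fold in cardiomyocytes (log2 ratios 0.28 and 0.22). Capitals mark the CArG box and, in Actc1, TATAAA. All are on the minus strand, printed 5′ to 3′. The CArG box begins 47 bases before the start of Actc1, 61 bases before that of Myl7 and 35 bases before that of Ldb3, which is 1 of 2 starts listed for Ldb3 and lies inside the gene. TATAAA begins 33 bases after the start that RefSeq gives for Actc1.
Actc1, chr2:114052826-114053125: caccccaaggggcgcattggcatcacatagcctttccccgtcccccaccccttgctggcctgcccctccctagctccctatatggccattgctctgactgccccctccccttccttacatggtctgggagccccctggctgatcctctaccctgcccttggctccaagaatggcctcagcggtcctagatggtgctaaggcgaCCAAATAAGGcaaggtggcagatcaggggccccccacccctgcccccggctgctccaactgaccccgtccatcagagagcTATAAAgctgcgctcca
Myl7, chr11:5898733-5899032: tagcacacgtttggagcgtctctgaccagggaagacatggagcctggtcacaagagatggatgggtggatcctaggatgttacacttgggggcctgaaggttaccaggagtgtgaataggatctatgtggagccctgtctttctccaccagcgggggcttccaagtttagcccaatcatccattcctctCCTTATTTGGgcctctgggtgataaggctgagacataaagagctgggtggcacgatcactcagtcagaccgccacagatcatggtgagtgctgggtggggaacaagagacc
Ldb3, chr14:34588632-34588931: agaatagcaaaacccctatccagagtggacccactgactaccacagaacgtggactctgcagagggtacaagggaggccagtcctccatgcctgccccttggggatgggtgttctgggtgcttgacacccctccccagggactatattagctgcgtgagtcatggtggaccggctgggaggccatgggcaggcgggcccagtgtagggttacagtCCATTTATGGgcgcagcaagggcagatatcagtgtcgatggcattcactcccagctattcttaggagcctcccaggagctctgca

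Cardiomyocytes made up 3.41% of cells (2.99 to 3.88, Clopper-Pearson) in the Ctrl-labelled library and 4.77% (4.34 to 5.23) in the cKO-labelled library, a difference of 1.36 percentage points (0.72 to 1.99). Xist-positive cells gave 3.5% and 4.42%, and Y-positive cells 3.17% and 4.88%, so the portions of both libraries kept the order. The dissection sets how much heart enters a sample. In the Ctrl library 9 of 234 cardiomyocytes (3.85%) had been left out as presumed doublets, and in the cKO library 77 of 505 (15.2%). With these cells kept, the shares were 3.34% and 5.17%. The summed share of the 5 genes that set the class had a median of 2.8% of a cardiomyocyte's UMIs in the Ctrl-labelled library and 3.21% in the cKO-labelled library, and reached 7.41% and 6.99%. Near the threshold, between 0.5% and 2%, lay 100 of 6591 and 172 of 8969 cells.

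Within cardiomyocytes 28 of the 32 members that could be compared differed by less than the fold set below. All 34 members together took 6.38% of cardiomyocyte UMIs in the Ctrl-labelled library and 6.89% in the cKO-labelled library. After each cell was thinned to 5000 UMIs, which left out 3 and 4 shallower cells, the median cardiomyocyte held UMIs of 23 members (quartiles 20 and 25) in the Ctrl-labelled library and of 22 (20 and 24) in the cKO-labelled library. Without thinning the medians were 28 and 27. The 34 genes were read against a filter of at least 10 CPM on average and 30 UMIs in all, which 32 passed in cardiomyocytes. Myh7b, with 17 and 19 UMIs, and Casq2, the calsequestrin that buffers calcium in the reticulum, with 9 and 17 UMIs, did not. Of these 32, 16 were above and 16 below a log2 ratio of 0, with a median log2 ratio of 0.01 against -0.06 over all 7396 genes that passed.

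A member was said to be past the fold when its level differed at least 1.5-fold and the counting interval left out equality. By this rule none of the 32 members was higher in the cKO-labelled library, where 2.7% of all genes were, and 4 were lower (12.5%), where 8.95% of all genes were. Leaving aside the genes that set the class, 3 of 27 (11.1%) were lower, a share near that of all genes. The 4 were Synpo2l, Ldb3, Ryr2 and Myh7. In Xist-positive cells alone 2 passed, Ldb3 and Synpo2l, where 9.41% of all genes did, with Myh7 at -0.55 and Ryr2 at -0.57. In Y-positive cells alone 6 passed, where 7.37% of all genes did, with Tnnt1 and Pln added to the 4. With the presumed doublets kept 7 passed, where 9.41% of all genes did, with Atp2a2, Pln and Cacna1c added.

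**Figure D1:**
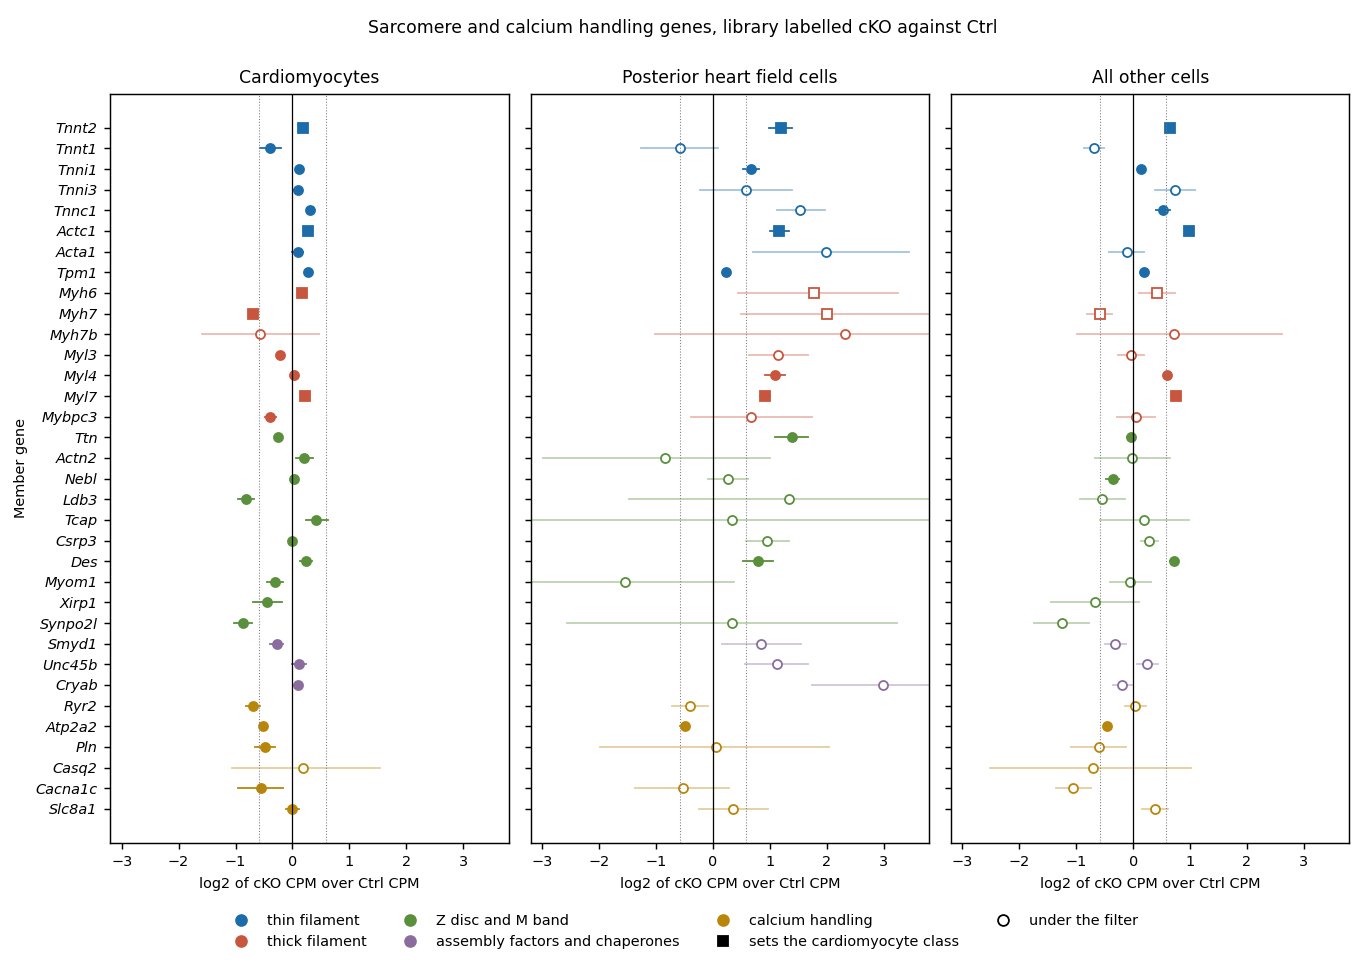
Log2 ratio of CPM in the cKO-labelled library over the Ctrl-labelled library for the 34 members (rows, coloured by role) in cardiomyocytes, posterior heart field cells and all other cells, with exact 95% counting intervals (lines that leave the panel run on, and genes without a UMI in a library are not drawn). Dotted lines mark 1.5-fold, squares the genes that set the cardiomyocyte class and open symbols the genes under the filter. Cardiomyocyte values cluster at 0 with the calcium handling genes that passed the filter at or below it, while most filament genes lie to the right in posterior heart field cells.

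Of the 8 thin filament genes none was past the fold in cardiomyocytes. Their median log2 ratio was 0.15, with 7 of 8 above 0 where 3214 of 7396 genes were, but with presumed doublets kept Tnnt2 (-0.01), Tnni1 (-0.03), Tnni3 (-0.05) and Acta1 (-0.09) lay below 0 and 3 of 8 were above it. Tnnc1, which encodes the calcium-binding troponin C, had 2890 and 3550 CPM (log2 ratio 0.30, 0.27 to 0.33). Tpm1, the main striated tropomyosin gene, had 8110 and 9790 (log2 ratio 0.27). Actc1, cardiac alpha-actin and one of the genes that set the class, had 11100 and 13500 CPM (log2 ratio 0.28). Both portions of cKO lay above both of Ctrl for Actc1, with 11800 and 11600 in Ctrl against 13900 and 13600 in cKO. Of all genes past the filter 24.1% did so. Tnni3, the adult troponin I, had 642 and 689, and Acta1, skeletal alpha-actin, 329 and 350 (log2 ratio 0.09, -0.01 to 0.19). The exception was Tnnt1, the slow skeletal troponin T, with 107 and 82.1 CPM (log2 ratio -0.39, -0.57 to -0.21). None of these values reached 1.5-fold.

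Of the thick filament genes, Myl7, the atrial regulatory light chain, had 11400 and 13300 CPM, but the portions differed, with Xist-positive cells at 11300 and 14500, while Y-positive cells had 12500 and 12300. Myl4, the atrial essential light chain, had 7790 and 7920. Myl3, the ventricular essential light chain, had 2530 and 2170, and again the portions parted, with 2310 and 2340 in Xist-positive and 3030 and 2130 in Y-positive cells. Myh6 and Myh7 encode the alpha and beta heavy chains, the former favoured in atria and the latter in the embryonic ventricle. Myh6 had 1130 and 1270 CPM (log2 ratio 0.17), whereas Myh7 had 1260 and 782 (log2 ratio -0.69, -0.75 to -0.64). Both portions of the cKO-labelled library lay below both of Ctrl for Myh7, at 803 and 854 against 1170 and 1410, where 33.2% of all genes did. Since both chains set the class, these are descriptions. Mybpc3, the myosin-binding protein C gene, had 328 and 250 CPM (log2 ratio -0.39, -0.49 to -0.29).

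Z disc genes held the largest cardiomyocyte differences. Synpo2l, an actin-associated Z disc protein, had 167 CPM in the Ctrl-labelled library (159 and 185 by portion) and 91.4 in the cKO-labelled library (82.8 and 107), a log2 ratio of -0.87 (-1.02 to -0.71). Ldb3, the cypher protein that links alpha-actinin to kinases, had 216 (199 and 239) and 122 (130 and 119), a log2 ratio of -0.82 (-0.96 to -0.68). Both genes were lower in both portions, with no overlap, as were 33.2% of all genes. Xirp1, an actin-binding protein of the intercalated disc, had 55.3 and 40.8 CPM (log2 ratio -0.44, -0.69 to -0.18), and Myom1, which crosslinks myosin at the M band, 158 and 128 (log2 ratio -0.30, -0.45 to -0.16). The remaining genes were closer to equality: Actn2, the alpha-actinin itself, had 133 and 153 CPM, Csrp3 1480 and 1470, Nebl 950 and 968, and Des, the intermediate filament desmin, 313 and 369. Tcap, which caps titin at the Z disc, had 74.8 and 100 CPM, the highest log2 ratio of the 32 members at 0.42 (0.23 to 0.62). Titin itself, Ttn, had 4930 and 4110 (log2 ratio -0.26, -0.29 to -0.24), lower in both portions. The assembly factors were close between the libraries, with the myosin chaperone Unc45b at 198 and 215, the methyltransferase Smyd1 at 233 and 192 and the small heat shock protein Cryab at 626 and 672 CPM.

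The 5 calcium handling genes that passed the filter lay at or below equality in cardiomyocytes of the cKO-labelled library, with a median log2 ratio of -0.51. Of all 7396 genes that passed, 4182 were below 0. Only Ryr2 of the 5 was past the fold (20%), where 8.95% of all genes were lower. Ryr2, the release channel, had 263 CPM in the Ctrl-labelled library (269 and 280 by portion) and 163 in the cKO-labelled library (181 and 153), a log2 ratio of -0.69 (-0.81 to -0.57). Atp2a2, which encodes SERCA2, had 1100 (1110 and 1170) and 771 (767 and 788), a log2 ratio of -0.51 (-0.57 to -0.45). Cacna1c, the pore of the L-type channel, had 25.8 and 17.5 CPM on 107 and 120 UMIs (log2 ratio -0.56, -0.95 to -0.17). In these 3 genes both portions of the cKO-labelled library were below both of Ctrl. Pln, the SERCA2 inhibitor phospholamban, had 113 and 81.1, but its Xist-positive cells had 79.2 and 86.1 and its Y-positive cells 144 and 76.4, so only its Y-positive cells had the lower level in cKO. Slc8a1, the sodium-calcium exchanger, was level at 225 in both libraries (log2 ratio 0.00, -0.12 to 0.12). Over all 32 members that passed, both portions of cKO were above both of Ctrl in 9 and below in 12, where 24.1% and 33.2% of all genes were.

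**Figure D2:**
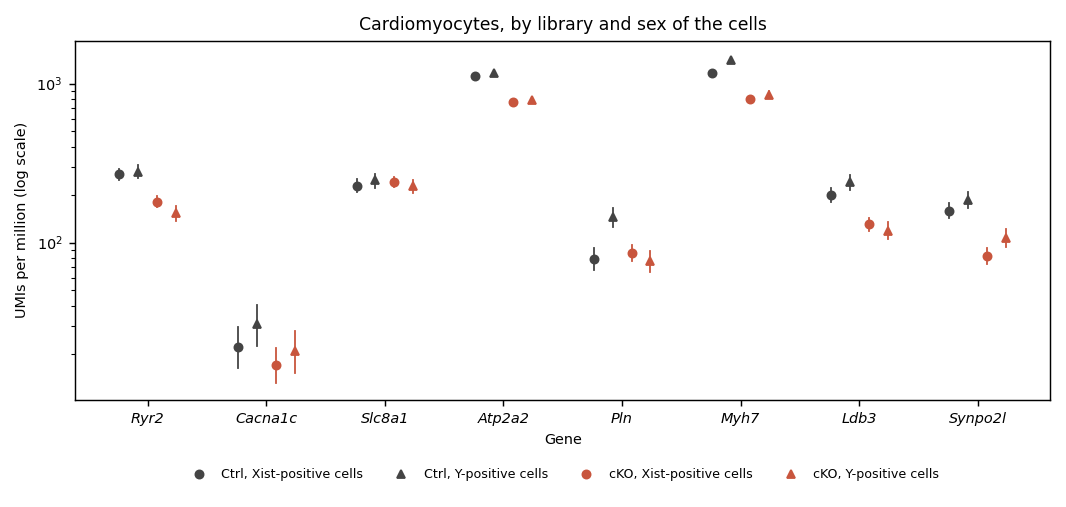
CPM (log scale) in cardiomyocytes for 5 calcium handling genes, Myh7, Ldb3 and Synpo2l, in Xist-positive (circles) and Y-positive (triangles) cells of the libraries labelled Ctrl (grey) and cKO (red), with exact 95% counting intervals. Both cKO points lie below both Ctrl points for Ryr2, Cacna1c, Atp2a2, Myh7, Ldb3 and Synpo2l, and overlap with them for Pln and Slc8a1.

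Posterior heart field cells were 16.4% of cells (15.5 to 17.3) in the Ctrl-labelled library and 11.4% (10.8 to 12.1) in the cKO-labelled library. Their median depths were 18756 and 15266 UMIs, which bears on a gate of single UMIs. Members took 0.0801% of their UMIs in Ctrl and 0.102% in cKO. In bulk or pooled cells, fewer cells with a transcript and less transcript per cell cannot be told apart, so the share of cells is given further on. Only 9 of the 34 members passed the filter here: Tnnt2, Tnni1, Actc1, Tpm1, Myl4, Myl7, Ttn, Des and Atp2a2, of which Ttn passed through its cKO level. By the fold rule 7 of the 9 were higher in the cKO-labelled library (77.8%), where 1.59% of all genes were, and none was lower, where 10.3% of all genes were. Without the genes that set the cardiomyocyte class and are capped by it here, 4 of 6 were higher, and 3 of 5 without Ttn. With the cardiomyocyte class set by genes other than the members, and with the posterior gate applied after thinning, 8 members passed and 5 were higher, where 1.58% and 1.95% of all genes were. Of the genes outside the gate those were Myl4 and Des in both cases, as Ttn no longer passed the filter and Tnni1 had log2 ratios of 0.52 and 0.58. In Xist-positive cells 6 were higher, where 1.72% of all genes were, and Tnni1, at 0.55, was not among them. They were Tnnt2, Actc1 and Myl7, which set the class, and Ttn, Myl4 and Des. The median log2 ratio of the 6 members outside the gate that passed the filter, Ttn included, was 0.73, and that of all 7358 genes -0.10. In 5 of the 6 both portions of cKO were above both of Ctrl, where 26.2% of all genes were. The 5 were Tnni1, Tpm1, Myl4, Des and Ttn, the last of which passed the filter through its cKO level. Atp2a2 was below in both, where 49.3% of all genes were.

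The thin filament gene Tnnt2, cardiac troponin T, had 14.3 CPM in posterior heart field cells of the Ctrl-labelled library (15.4 and 14.6 by portion) and 32.6 in the cKO-labelled library (30.5 and 38.2), a 2.28-fold difference (1.98 to 2.62). Actc1 had 21.2 (19.9 and 20.3) and 47.9 (48.7 and 49.2), 2.25-fold (2.01 to 2.53). Tnni1, the troponin I that precedes Tnni3 in the embryonic heart, had 31.8 (29 and 32.9) and 50.8 (42.6 and 56.2), 1.59-fold (1.44 to 1.77). In all 3 genes the lower cKO portion lay above the higher Ctrl portion, where 26.2% of all genes did so. Tnnt2 and Actc1 set the cardiomyocyte class, which caps their level here. Tnnc1, below the filter, had 69 and 160 UMIs, or 3.24 and 9.41 CPM, a log2 ratio of 1.54 (1.12 to 1.97). Tpm1, which is also used by smooth muscle and other cells, differed least of the 9, with 417 and 493 CPM (log2 ratio 0.24, 0.20 to 0.28). Tnni3 gave 26 and 31 UMIs and Acta1 7 and 22. Tnnt1 went the other way, with 56 and 30 UMIs (log2 ratio -0.57, -1.26 to 0.09), an interval that includes equality.

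Of the thick filament genes only the atrial light chains passed the filter. Myl7 had 75.6 CPM (80.3 and 72.8 by portion) in the Ctrl-labelled library and 143 (141 and 152) in the cKO-labelled library, 1.89-fold (1.78 to 2.02). Myl4 had 19.6 (18.9 and 21.5) and 41.8 (44.7 and 40.6), 2.14-fold (1.89 to 2.42). Myl3 followed at a lower level, with 51 and 90 UMIs (log2 ratio 1.15, 0.64 to 1.67). The heavy chains were nearly silent in both libraries: Myh6 gave 7 and 19 UMIs and Myh7 gave 5 and 16 (log2 ratios 1.77 and 2.01, and 0.07 and 0.63 with presumed doublets kept), over 21326193 and 17000707 UMIs of the class.

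Of the Z disc and M band genes, Ttn had 6.94 CPM (8.07 and 6.07) in the Ctrl-labelled library and 18.2 (17.5 and 20) in the cKO-labelled library, a log2 ratio of 1.39 (1.10 to 1.68), and Des had 10.2 (11.1 and 7.58) and 17.6 (16.8 and 16), a log2 ratio of 0.79 (0.53 to 1.05). With presumed doublets kept the log2 ratio of Ttn was 0.31 and that of Des 0.88. These doublets were 119 of 1202 posterior cells (9.9%) in Ctrl and 201 of 1225 (16.4%) in cKO. Csrp3, the muscle LIM protein, had 99 and 154 UMIs (log2 ratio 0.96), and 0.22 (-0.30 to 0.73) without the cells richest in the 5 gate genes, described further on. Nebl gave 146 and 140 UMIs (log2 ratio 0.27, -0.08 to 0.61), Myom1 11 and 3, and Actn2 9 and 4. Other Z disc genes were close to absent: Ldb3 gave 2 and 4 UMIs, Tcap gave 1 UMI in each library, Synpo2l gave 3 in each, and Xirp1 gave 0 and 1. A count of 0 allows up to 0.141 CPM in the Ctrl-labelled library. The chaperone genes Unc45b and Cryab gave 45 and 78 UMIs and 6 and 38 UMIs, with log2 ratios of 1.12 (0.57 to 1.68) and 2.99 (1.74 to 4.52; 1.29 for Cryab with presumed doublets kept), and Smyd1 gave 32 and 46 (log2 ratio 0.85, 0.17 to 1.55).

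Of the calcium handling genes none was higher past the fold. Atp2a2 had 161 CPM in posterior heart field cells of the Ctrl-labelled library (157 and 163 by portion) and 115 in the cKO-labelled library (117 and 112), a log2 ratio of -0.49 (-0.57 to -0.41). Ryr2 had 10.7 (9.84 and 11.9) and 8.12 (7.92 and 7.98), a log2 ratio of -0.40 (-0.72 to -0.09), just under the filter. Neither reached 1.5-fold. Cacna1c gave 38 and 21 UMIs and Slc8a1 gave 47 and 48, both with intervals that include equality. Pln gave 6 and 5 UMIs and Casq2 gave 1 and 0. The lower level of Atp2a2 was not particular to this class. Its log2 ratio was -0.46 in all other cells, -0.61 in endothelial-gated and -0.28 in sclerotome-gated cells.

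**Figure D3:**
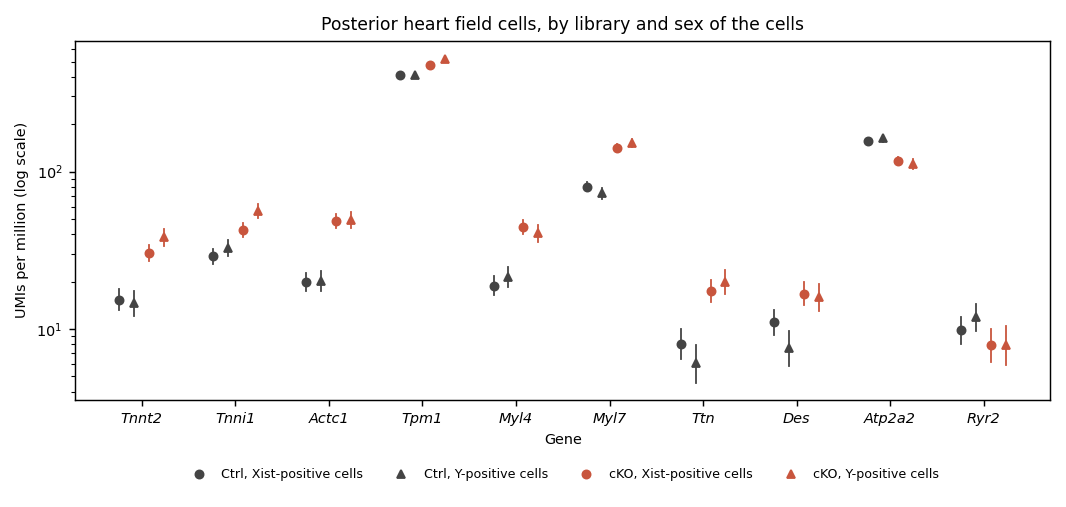
CPM (log scale) in posterior heart field cells for the 9 members that passed the filter and Ryr2, in Xist-positive (circles) and Y-positive (triangles) cells of the libraries labelled Ctrl (grey) and cKO (red), with exact 95% counting intervals. Both cKO points lie above both Ctrl points for Tnnt2, Tnni1, Actc1, Tpm1, Myl4, Myl7, Ttn and Des, and below them for Atp2a2 and Ryr2.

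How the UMIs of the 5 gate genes, which cap the class at 1%, were spread over its cells is given as a description. Of the posterior heart field cells, 387 of 1083 in the Ctrl-labelled library and 263 of 1024 in the cKO-labelled library held no UMI of the 5 gate genes. A gate-gene share between 0.02% and 0.05% of UMIs was found in 9.33% of cells (7.66 to 11.2) in Ctrl and 18.8% (16.5 to 21.4) in cKO, and one between 0.05% and 0.1% in 2.12% (1.35 to 3.17) and 4.2% (3.06 to 5.61). Above 0.2% there were 6 and 17 cells, which held 14.5% and 26.4% of the gate-gene UMIs of the class. When cells above 0.2% were left out, the log2 ratio of Myl4 was 0.68 and that of Des 0.77, both past the fold, while that of Tnni1 was 0.40 and Ttn, at 1.04, no longer passed the filter. Tnnt2, Actc1 and Myl7, whose own UMIs decide which cells are left out, had log2 ratios of 0.89, 1.09 and 0.73 as a description.

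**Figure D4:**
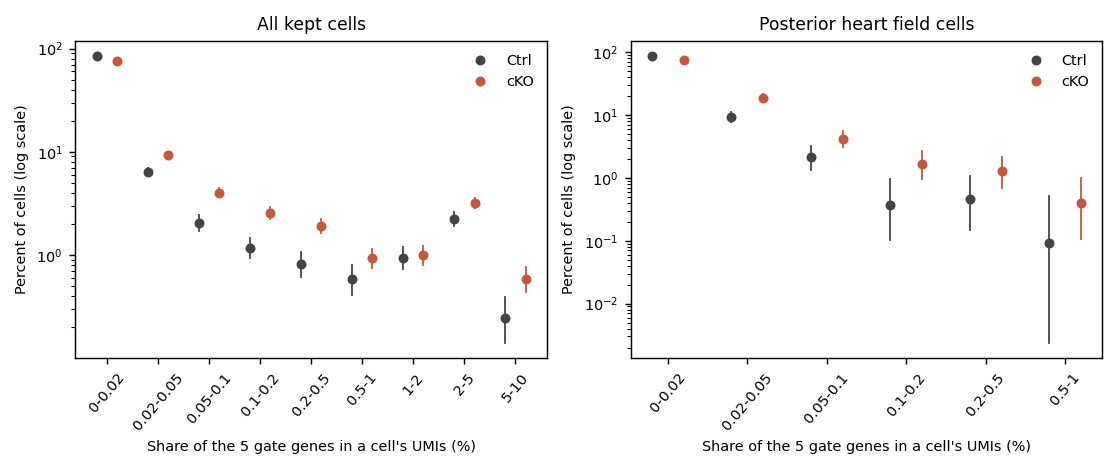
Percent of cells (log scale) in ranges of the summed share of Tnnt2, Actc1, Myl7, Myh6 and Myh7 among a cell's UMIs, for all kept cells (left) and posterior heart field cells (right) of the libraries labelled Ctrl (grey) and cKO (red), with Clopper-Pearson 95% intervals. Above 0.02% the cKO points lie above the Ctrl points in every range, and posterior heart field cells end at 1% by the rule of the class.

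Counted per cell at 5000 UMIs, Tnnt2 was found in 4.45% of posterior heart field cells (3.3 to 5.86) in the Ctrl-labelled library and 9.31% (7.6 to 11.3) in the cKO-labelled library, and without thinning in 10.2% and 18.8%. Myl7 was found in 25.9% (23.4 to 28.7) and 33.4% (30.5 to 36.4), and without thinning in 57.4% and 62.6%. Actc1 was found in 5.47% (4.19 to 7) and 9.8% (8.05 to 11.8), and without thinning in 13.5% and 25.8%. All 3 are gate genes. Of the genes outside the gate, Tnni1 was found in 10.1% (8.37 to 12.1) and 11.7% (9.76 to 13.8) of cells, and without thinning in 19.9% and 23%. Des was found in 5.1% (3.86 to 6.58) and 6.67% (5.21 to 8.38), and without thinning in 15.8% and 19.1%. Myl4 was found in 6.77% (5.34 to 8.43) and 10% (8.23 to 12), and without thinning in 15.9% and 21.5%. The intervals at 5000 UMIs overlapped between the libraries for Tnni1, Des and Myl4. Free RNA can leave UMIs in cells that do not transcribe a gene, so the same was counted in sclerotome-gated cells, which had at least 1 UMI each of Meox1 and Pax1 and median depths of 18505 and 16576 UMIs. There, at 5000 UMIs, Tnnt2 was found in 0 of 241 cells (Clopper-Pearson upper bound 1.52%) in Ctrl and 2 of 139 (1.44%, 0.175 to 5.1) in cKO, Myl7 in 2.49% (0.919 to 5.34) and 12.9% (7.86 to 19.7), and Actc1 in 2.49% (0.919 to 5.34) and 10.1% (5.62 to 16.3). Tnni1 was found there in 0 of 241 and 2 of 139 cells, Myl4 in 1.24% (0.257 to 3.59) and 6.47% (3 to 11.9), and Des in 2.07% (0.677 to 4.77) and 18% (12 to 25.4), the last above its share of posterior cells. The Actc1 share of posterior cells of the cKO-labelled library was not above that of its sclerotome-gated cells. Cells with at least 3 members were 29.7% (27 to 32.6) and 34.2% (31.3 to 37.2) of posterior heart field cells at 5000 UMIs, against 6.64% (3.84 to 10.6) and 18.7% (12.6 to 26.2) of sclerotome-gated cells. They were 32.4% (31.1 to 33.7) and 39% (37.9 to 40.2) of the other cells, and 17.7% (13 to 23.3) and 14.8% (10.3 to 20.4) of endothelial-gated cells. Tnnt2 was found in 5.63% (3.03 to 9.43) and 5.26% (2.66 to 9.22) of endothelial-gated cells, so its share in posterior cells of the Ctrl-labelled library, 4.45%, was not above that. Nor was that of Tnni1, which was found in 16.5% (11.9 to 21.9) and 15.3% (10.7 to 20.9) of endothelial-gated cells. The sclerotome-gated cells came mainly from Xist-positive cells in Ctrl (210 against 21 Y-positive) and from Y-positive cells in cKO (102 against 5), so that class compares different embryos and the sexes with it.

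Relative to cardiomyocytes of the same library, members differed widely in how much of them posterior heart field cells held. In the Ctrl-labelled library Atp2a2 stood at 14.7% of its cardiomyocyte level (14 to 15.3), Cacna1c at 6.9% (4.63 to 10.1), Tpm1 at 5.15% (5.03 to 5.27), Ryr2 at 4.09% (3.53 to 4.72) and Tnni1 at 2.02% (1.87 to 2.19). Myl7 stood at 0.661% (0.628 to 0.694), Tnnt2 at 0.438% (0.39 to 0.491), Actc1 at 0.191% (0.174 to 0.21), Myl3 at 0.0945% (0.0703 to 0.124) and Myh7 at 0.0185% (0.00602 to 0.0433). In the cKO-labelled library the values of Atp2a2 (14.9%), Tpm1 (5.03%), Cacna1c (7.06%) and Ryr2 (4.98%) had intervals that overlapped those of Ctrl, while Tnnt2 was at 0.879% (0.807 to 0.956), Actc1 at 0.356% (0.331 to 0.381), Myl4 at 0.527% (0.489 to 0.568) against 0.251% (0.227 to 0.276), and Ttn at 0.443% (0.394 to 0.495) against 0.141% (0.119 to 0.165). In sclerotome-gated cells Myl7 stood at 0.0536% and 0.251% of its cardiomyocyte level and Myl4 at 0.0461% and 0.339%, so these shares were higher in cKO there too, and the part of free RNA in the posterior values was not tested. Of the other calcium handling genes Slc8a1 stood at 0.978% and Pln at 0.249% in Ctrl. The class of all other cells held more of several filament genes than the posterior class. There Tnnt2 stood at 0.75% in Ctrl and 1.03% in cKO, Tnni1 at 5.22% and 5.31%, Myl4 at 1.14% and 1.7%, and Tpm1 at 6.5% and 6.14%. Myl7, at 0.709% and 1.03%, was close to its posterior values. Atp2a2, at 12.6% and 13%, and Ryr2, at 1.67% and 2.77%, were lower there than in the posterior class. The low place of Myh6 and Myh7 is set by the class.

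**Figure D5:**
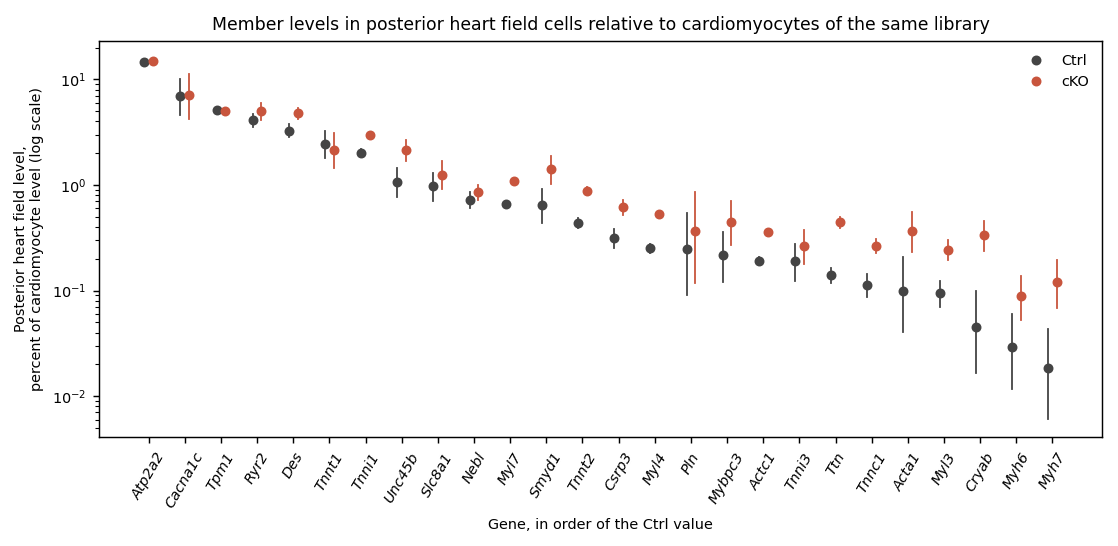
Level of a member in posterior heart field cells as percent of its level in cardiomyocytes of the same library (log scale), for members with at least 5 UMIs in the class in both libraries, ordered by the Ctrl value, with exact 95% counting intervals. Atp2a2, Cacna1c, Tpm1 and Ryr2 have overlapping or close points in both libraries, and the cKO points of most filament genes lie above the Ctrl points.

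Markers of other cells in the posterior class were read as well. The summed level of 12 cardiomyocyte markers outside the gate, among them Tbx5 and Nkx2-5, was 198 CPM in the Ctrl-labelled library and 167 in the cKO-labelled library, of which Tbx5 and Gata4 are also markers of the posterior field and made up 93.7 and 37 in Ctrl and 65.8 and 31.4 in cKO. Of the other 10, Tbx20 had 9.43 and 6.35 CPM (log2 ratio -0.57, -0.92 to -0.22), and Hand2, Nkx2-5, Popdc2 and Smpx had log2 ratios of -0.12, 0.14, 0.16 and 0.11 with intervals that include equality. Ankrd1 had 0.516 and 1.71 CPM (log2 ratio 1.73, 0.68 to 2.88), Myl2 0.75 and 1.41 (log2 ratio 0.91, -0.06 to 1.92), Nppa 0.141 and 0.294, Hspb7 0.234 and 0.412, and Sh3bgr 12.4 and 15.4 (log2 ratio 0.31, 0.06 to 0.56). The endothelial list of 7 genes had 35.3 and 40 (within it Egfl7 had 24.8 and 33.2, Kdr 7.55 and 5.06, and Cdh5 0.985 and 0.0588), the epicardial list of 6 had 345 and 284 with 1 gene at 0 in Ctrl, the paraxial list of 6 had 41.2 and 46.1 (within it Meox1 had 9.14 and 16.2, log2 ratio 0.83, 0.56 to 1.10, Pax3 0.891 and 1.76, log2 ratio 0.99, 0.11 to 1.90, and Foxc2 26.7 and 22.1, log2 ratio -0.28), and the neural crest list of 5 had 0.0469 and 0.0588 with 4 genes at 0 in each library. The endodermal list of 5 had 79.2 and 129, of which Krt18, a keratin also found outside endoderm, made up 70.7 and 122 while Shh was at 0 in both and Cdh1 at 0 in cKO. The part of these markers in the result was not tested. The share of mitochondrial UMIs in the class was 2.92% and 2.2%, and that of erythroid globin UMIs 2.81e-05% and 0.0169%.

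All other cells, 5283 and 7517 in number, are a mixture of mesoderm, blood vessel and blood cells, and their proportions cannot be told apart from levels within cells. Erythroid globin UMIs were 0.00156% and 1.28% of the class. Of the members, 11 passed the filter, 5 were higher in the cKO-labelled library by the fold rule (45.5%), where 1.37% of all genes were, and none was lower, where 9.12% were. Outside the genes that set the cardiomyocyte class 2 of 8 were higher, Myl4 and Des. Tnnc1 passed the filter through its cKO level (9.89 and 14.2 CPM). The median log2 ratio of the 8, Tnnc1 included, was 0.16, and that of all 7523 genes -0.11. In 4 of the 8 (Tpm1, Myl4, Des and Tnnc1) both portions of cKO were above both of Ctrl, where 26.5% of all genes were. In 2 they were below, where 53.5% were. Actc1 had 42.5 CPM (39.7 and 40.3 by portion) in the Ctrl-labelled library and 84.1 (85.4 and 74.1) in the cKO-labelled library (log2 ratio 0.98, 0.93 to 1.04). Des had 34.2 (32.6 and 35.7) and 56 (54.4 and 57.7), a log2 ratio of 0.71 (0.65 to 0.77). Both genes were separate between the libraries in both portions, while Tnnt2, at 19.7 and 29.4 in Ctrl and 37.9 and 36 in cKO, and Myl4, at 75.1 and 105 against 146 and 114, differed mainly in Xist-positive cells. Tnni1 was near level at 82.1 and 90.5. In Y-positive cells only Actc1 and Des were past the fold upward and Nebl downward. With the cardiomyocyte threshold at 2%, Des alone was left past the fold.

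Members under the filter in the other cells went in both directions. Tnni3 gave 107 and 218 UMIs (log2 ratio 0.73, 0.39 to 1.08). Synpo2l gave 111 and 57 UMIs (log2 ratio -1.25, -1.74 to -0.78), Cacna1c 238 and 141 (log2 ratio -1.05, -1.36 to -0.74), and Tnnt1 620 and 472 (log2 ratio -0.69, -0.86 to -0.51). Myh7 gave 404 and 328 (log2 ratio -0.59, -0.81 to -0.38) and Pln 83 and 67 (log2 ratio -0.60, -1.09 to -0.12). With no filter, 6 of 34 members were higher and 5 lower by the fold rule, where 3.23% and 13.8% of all genes were, so the lower count is near that of all genes.

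Among the other cells, 2 gated groups are given. In endothelial-gated cells (233 and 216, with at least 1 UMI each of Pecam1 and Cdh5) Myl7 was at 15.7 CPM in both libraries and Tnnt2 at 19.1 and 16.3 (log2 ratio -0.22, -0.76 to 0.30), while Myl4 had 21.9 and 12.8 (log2 ratio -0.78, -1.35 to -0.23). In sclerotome-gated cells Des had 7.19 and 43.6 and Myl4 3.59 and 26.9 CPM, between the different embryos named above.

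Further muscle genes, 47 in a list of other sarcomere, calcium handling and energy genes, were read in the same way. In posterior heart field cells 7 of the 47 passed the filter and none was past the fold in either direction. Of all genes 1.59% were higher and 10.3% lower there. Nexn, an actin-binding Z disc protein, had 20.9 and 29.5 CPM (log2 ratio 0.50, 0.31 to 0.69), and Tpm2 41.7 and 51.3 (log2 ratio 0.30). Of the calcium genes among them, Asph had 58.1 and 42.5 (log2 ratio -0.45) and Camk2d 27.1 and 20.1 (log2 ratio -0.43). In cardiomyocytes 36 of the 47 passed, and 5.56% were past the fold in each direction, where 2.7% of all genes were higher and 8.95% lower. Past the fold were Pdlim3, a Z disc LIM protein (26.3 and 45.6 CPM, log2 ratio 0.79), and S100a1, a calcium sensor (28 and 43.2, log2 ratio 0.62), both upward, and the channel genes Cacna1d (40.1 and 25.5) and Cacna1h (21.7 and 13.9), both downward with a log2 ratio of -0.65. Of the 12 other calcium handling genes that passed in cardiomyocytes, 9 had a log2 ratio below 0, where 4182 of 7396 genes did, and the median was -0.27.

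Of 13 cardiac transcription factors, 8 passed in posterior heart field cells. Their median log2 ratio was -0.25, with 7 below 0 where 4569 of 7358 genes were, and 1 of 8 was lower past the fold (12.5%), near the 10.3% of all genes. Srf, which binds the CArG box, had 19.9 and 13.1 CPM (log2 ratio -0.60, -0.84 to -0.37), the only one past the fold, and Tbx5, a factor of the posterior field, had 93.7 and 65.8 (log2 ratio -0.51, -0.62 to -0.40). In cardiomyocytes Myocd, the partner of serum response factor, had 180 and 94.3 (log2 ratio -0.93, -1.08 to -0.78) and Isl1 80.6 and 52.2 (log2 ratio -0.63, -0.85 to -0.41), while Nkx2-5 had 116 and 129 (log2 ratio 0.15, -0.01 to 0.32). Of the 16 nonmuscle counterparts, such as cytoplasmic actins and nonmuscle myosins, all passed in posterior heart field cells, with 8 above and 8 below equality and a median log2 ratio of 0.00. Actg1 had 2010 and 2670 CPM (log2 ratio 0.41), Tpm3 253 and 353 (log2 ratio 0.48) and Actn1 105 and 65 (log2 ratio -0.69), and in all 3 main classes these genes had the same sign.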

How the data were processed

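Per the submitters' processing notes, the authors processed 10x Chromium 3′ reads with Cell Ranger 3.1.0 and mm10, and the deposited values are raw counts per gene and cell barcode, with no normalization. Cells with at least 1000 genes and at most 10% mitochondrial UMIs were kept, and the cells with the highest Scrublet scores (scanpy 1.11.5) were left out as presumed doublets at 0.8% per 1000 cells (416 and 804 cells), since the caller's own threshold marked 0% of cells of Ctrl and 8.63% of cKO. Counts were summed over the cells of a class and library and divided by all UMIs of that class (CPM, per 1000000 UMIs), so levels are of 3′ tags and are not compared between genes. Intervals are exact Poisson, conditional binomial for ratios, and Clopper-Pearson for shares, computed in scipy 1.17.1. They cover counting error only. Depth over the 3 main classes ran from 4143137 to 112767609 UMIs, and 3 UMIs in it were taken as the floor. A fold of 1.5 whose interval leaves out equality was used as the rule, with a filter of 10 CPM on average and 30 UMIs. The calculation was tested on simulated data.

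The gene list, the classes and the other lists were chosen with earlier results of these data known. All 34 members are described. Of the other lists at most 8 genes per list and comparison were named, those with the largest ratio among genes past the filter, beside class markers. Not all of these are printed, and results that need certain genes are not reported here. Alternatives were other cell filters, thresholds, gates, denominators, centring, folds and the sexes alone.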

Additional observations from a re-analysis of the deposited data

Results flagged for a closer look

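Some members had effects in opposite directions, beyond counting error, in cells of different classes or embryos. None of these differences was tested, since each group is 1 library. The share of all genes with opposite directions is not given here, so the counts are descriptions and not a trait of these genes. Between cardiomyocytes and posterior heart field cells, 4 members had a log2 ratio below 0 in the former and above 0 in the latter: Myh7 (-0.69 and 2.01, a difference of 2.70, on 5 and 16 UMIs in the posterior class), Ttn (-0.26 and 1.39, a difference of 1.65), Myl3 (-0.22 and 1.15, a difference of 1.36) and Smyd1 (-0.28 and 0.85, a difference of 1.13). With presumed doublets kept the posterior log2 ratios were 0.63 for Myh7, 0.31 for Ttn, 0.69 for Myl3 and 0.61 for Smyd1. Among the alternatives run, the lowest posterior log2 ratio was 0.16 for Myl3 and 0.45 for Smyd1. Myh7 also sets the cardiomyocyte class, which caps its posterior level.

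Between Xist-positive and Y-positive cells, which come from different embryos, 3 members changed direction in cardiomyocytes. The log2 ratio in Y-positive cells minus that in Xist-positive cells was -0.40 for Tnni3, -0.18 for Myl4 and -0.45 for Cryab, each above 0 in Xist-positive and below 0 in Y-positive cells. In the other cells 6 members did so, with differences of -1.28 for Acta1, -2.43 for Myh7, -1.68 for Myl3, -0.69 for Ttn, -1.57 for Myom1 and -1.39 for Cryab. In posterior heart field cells no member had opposite directions by this rule.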

How the results depend on the processing

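No paired analysis was possible because each group is 1 library, and for that reason no library could be left out in turn. In cardiomyocytes the count of members lower past the fold, 4 as reported, was 9 with all cell barcodes, 7 with presumed doublets kept, 2 in Xist-positive cells alone and 0 at a fold of 2, where 9.59%, 9.41%, 9.41% and 0.96% of all genes were. The median log2 ratio of members in cardiomyocytes, 0.01 as reported, was -0.17 with all barcodes, -0.17 with doublets kept and -0.16 in Y-positive cells alone. In posterior heart field cells the count higher, 7 as reported, was 16 with no filter on low counts, where 2.29% of all genes were, and 4 at a fold of 2, where 0.367% were, and 1 member, Ryr2, was lower with a gate of 2 UMIs of Osr1 and Foxf1, where 11.6% of all genes were. Genes that set the cardiomyocyte class, which caps them here, are in these counts. They are Tnnt2, Actc1 and Myl7 in the 7, all 5 in the 16, and Tnnt2 and Actc1 in the 4. In the other cells the count higher, 5 as reported, was 1 at a cardiomyocyte threshold of 2%, 0 at a fold of 2, 2 in Y-positive cells alone and 3 without cells over 0.2%, where 1.34%, 0.412%, 1.51% and 1.37% of all genes were. The 5 include the gate genes Tnnt2, Actc1 and Myl7. The 3 include Actc1 and Myl7, whose own UMIs decide which cells are left out. The count lower there was 5 with no filter and 1 in Y-positive cells alone, where 13.8% and 12.3% of all genes were. The causes were not tested. None of the members past the filter and the fold in the 3 classes turned its direction under the alternatives run, while Myh7 and Pln in the other cells, both under the filter, reached log2 ratios of 0.77 and 0.68 in Xist-positive cells. Centring on the median gene, which lay at -0.06, -0.10 and -0.11 in the 3 classes, raised each log2 ratio by that amount and added Tnnc1 in the other cells. In posterior heart field cells 25 of 34 members were under the filter, which for most is a limit of level, as the class held more UMIs than the cardiomyocytes.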
